A study of Saccharomyces cerevisiae with 36 samples.

Results

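The 50 genes described here encode assembly factors of the large ribosomal subunit (60S) of budding yeast, Saccharomyces cerevisiae. They were chosen by name and role, by a rule that uses no measured value, though with earlier results of these data known. All 50 were on the array, of 5713 named genes in all. Each was printed as 2 spots. A value on at least 24 of the 36 arrays was required for testing, which 49 members had. SDA1, a nucleoplasmic factor, had a value on 1 array only (1.02, caffeine 2 mM 5 min, replicate 2) and was not tested.

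The 60S subunit is built in the nucleolus from a long precursor RNA, to which ribosomal proteins are added in order while assembly factors bind and leave. Helicases and methyltransferases act on the RNA early, the Nsa1 and Nop7 complexes act on later nucleolar particles, and the 5S particle is then loaded. Nucleoplasmic factors prepare the particle for export, and cytoplasmic factors strip off the export proteins and add the last ribosomal proteins. In yeast the genes of these factors belong to the ribosome biogenesis genes, which are known to be transcribed strongly in growing cells and less under many stresses.

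Treated cultures had received caffeine (2 or 20 mM), calcofluor white (0.02 or 0.1 mg/ml) or congo red (0.02 or 0.1 mg/ml) for 5, 15 or 90 min, and each was compared on 2-colour arrays with an untreated culture. Caffeine is a methylxanthine, and the other compounds are dyes that bind polymers of the yeast cell wall. The 36 arrays formed 18 conditions with n = 2 biological replicates each, with the treated RNA labelled with Cy5 on replicate 1 arrays and with Cy3 on replicate 2 arrays. Strain, medium and growth stage are not given in the sources, and whether untreated cultures were shared between doses or drugs is not stated either. On 7 arrays part of the labels contradicts the title, which was followed: the description gives another dose or time for calcofluor white 0.02 mg/ml 5 min and 15 min, calcofluor white 0.1 mg/ml 15 min and congo red 0.02 mg/ml 90 min, each in replicate 1, and 1 channel does so for caffeine 20 mM 15 min replicate 1 and for replicate 2 of calcofluor white 15 min at 0.02 and 0.1 mg/ml.

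Values below are ratios of treated to untreated RNA on the log2 scale, with the median gene of each array set to 0. That direction was read from the descriptions and was not stated for the deposited values, so it is likely rather than settled. The arrays of both dye orientations ran the same way where most genes changed, with a correlation over all genes of 0.67 between the 2 arrays of caffeine 20 mM 90 min and 0.53 at 15 min. At most other conditions that correlation was near or below 0, down to −0.52 at calcofluor white 0.02 mg/ml 15 min. One array, caffeine 2 mM 5 min replicate 1, correlated at −0.38 with the 15 min array of the same dose and orientation, so the direction of that array has no settled sign. Caffeine 2 mM 90 min replicate 1 correlated at −0.30 with the caffeine 20 mM 15 min array of the same orientation. Its correlation with its own replicate 2 was −0.27, so its direction is open to doubt too. A ratio relative to the median gene of a whole culture cannot tell fewer cells using a gene from less RNA per cell. A value for a condition is the mean of its 2 arrays ± SE from limma, and a gene is said to have risen or fallen where its Benjamini-Hochberg adjusted p over all genes tested was below 0.05. The SE pools the spread of a gene over all conditions, so that it does not measure how far the 2 arrays beside it lie apart. Precision is limited by how few arrays a condition has.

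Across the 18 conditions, 39 of the 49 tested members fell in at least 1 condition, 7 rose in at least 1, and 3 did both. The other 6, the helicase genes DBP9 and DRS1, and BRX1, MAK16, RPF2 and NOP53, passed in no condition. Of the 39, 25 fell in 1 condition only, and 2 fell in more than 3: NIP7 in 6 conditions and NOP2 in 5. The share of all genes that fell or rose in at least 1 condition was not computed, so these counts have no background. At caffeine 20 mM 90 min alone 44.6% of all genes fell or rose. The heat map of members by condition places most of the calls in caffeine 20 mM at 15 and 90 min, with fewer in calcofluor white at 90 min.

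**Figure D1:**
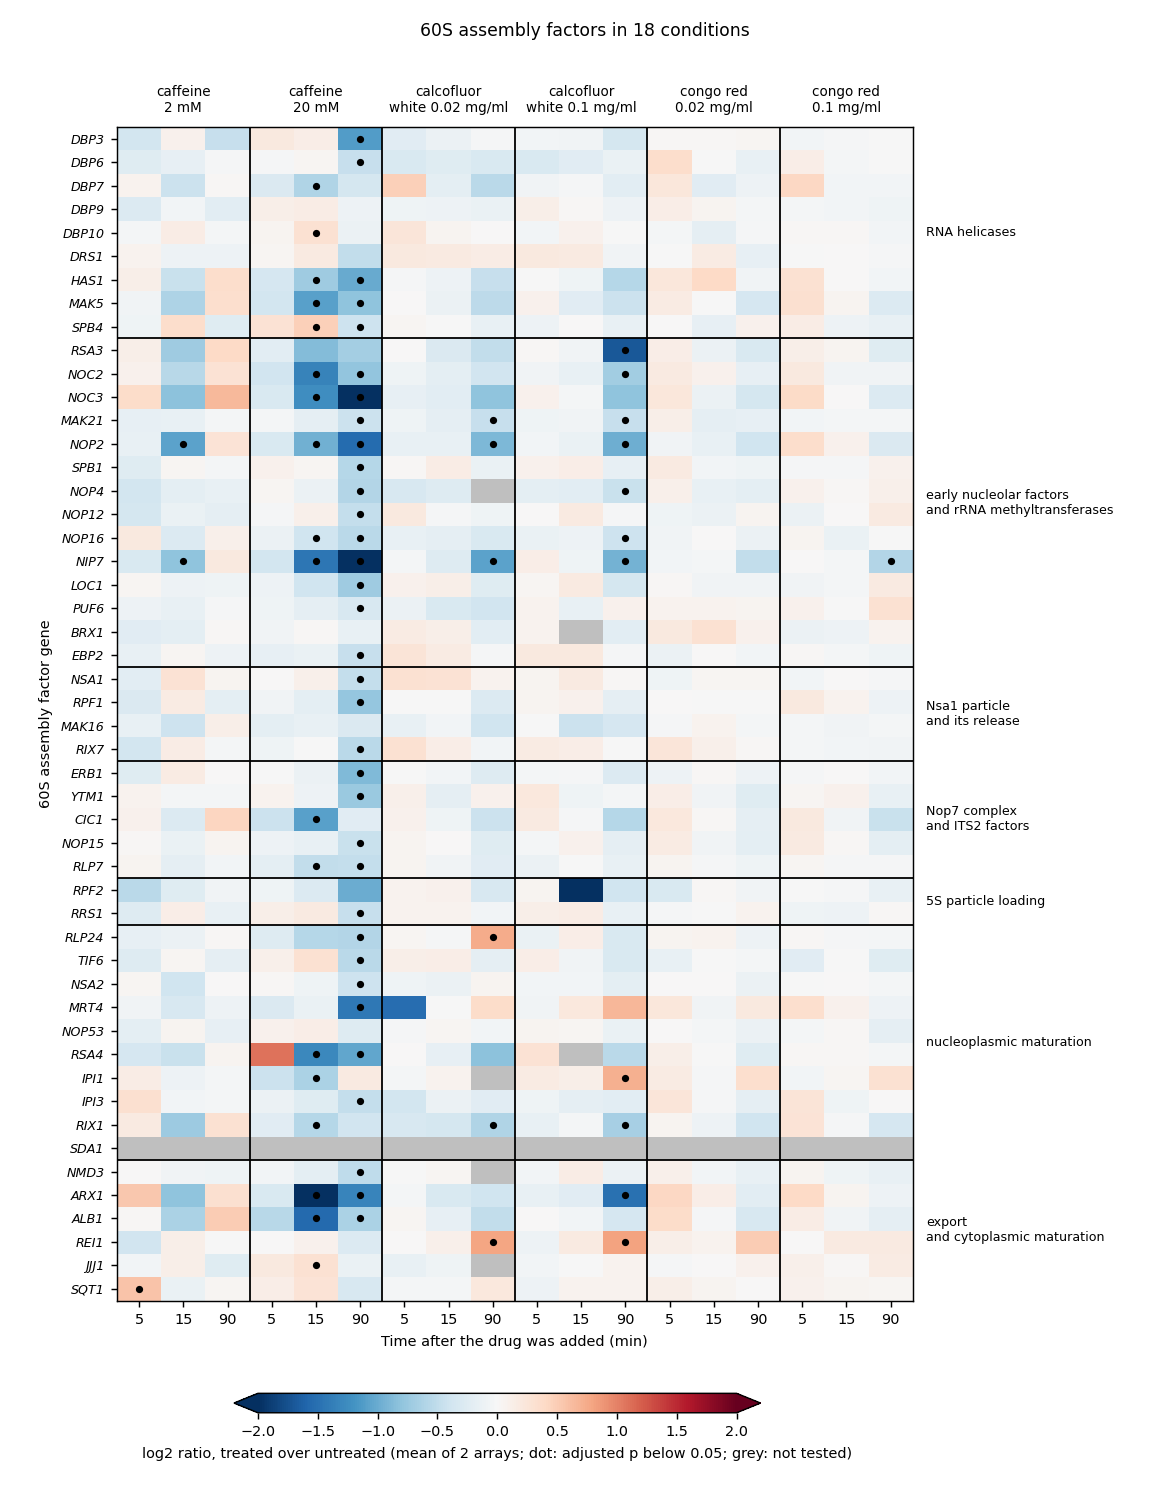
Log2 ratio, treated over untreated, of the 50 members (rows, grouped by role) in the 18 conditions (columns, drug and dose above and minutes below), as the mean of 2 arrays; a dot marks an adjusted p below 0.05 and grey a value not tested. The caffeine 20 mM 90 min column holds 34 dots, all in blue cells, while the 5 min columns hold 1 dot in all.

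After 90 min of caffeine at 20 mM, 34 of the 49 tested members fell, 0 rose and 15 did not pass. Over all 5270 genes tested there, 22.5% fell and 22.1% rose (44.6% in either direction). The members' median was −0.48, against −0.03 for all genes, and 48 of 49 members were below 0. Both arrays were below 0 for 43 members, above 0 for 1 (IPI1), and on opposite sides for 5. The members' median was −0.29 on replicate 1 and −0.76 on replicate 2, and replicate 2 was the lower array for 38 of 49. The count was 18 without the replicate block and 7 with arrays scaled to one spread. Leaving out either array lowered the count too. Without the block 36.7% of members and 11.6% of all genes tested fell. With scaled arrays 14.3% of members and 7.61% of all genes tested fell.

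Among the early nucleolar factors and RNA methyltransferases, 12 of 14 fell at this condition. NIP7 (YPL211W), which binds the pre-60S particle early, had −2.43 and −2.50 on its 2 arrays. These are the lowest member values on either array and lie close together. Its mean of −2.47 ± 0.13 is a 5.53-fold fall (limma adjusted p = 2.03e-11). NOC3 (YLR002C), a partner of Noc2 in the transport of the particle within the nucleus, had −1.93 and −2.21, a mean of −2.07 ± 0.30 (limma adjusted p = 9.38e-06). NOP2 (YNL061W), a methyltransferase of the large rRNA, had −1.06 and −2.02, a mean of −1.54 ± 0.22 (limma adjusted p = 9.06e-06). All 3 were below 0 on both arrays by more than their SE. NOC2 and LOC1 fell with uneven arrays, −0.26 and −1.32 for NOC2 and −0.25 and −1.16 for LOC1, while NOP16 (−0.57 and −0.50), NOP4 (−0.51 and −0.66), MAK21 (−0.50 and −0.36) and PUF6 (−0.37 and −0.29) had arrays that lay near each other. SPB1, a second rRNA methyltransferase gene (−0.57), NOP12 (−0.48) and EBP2 (−0.45) completed the group. RSA3 (−0.68 ± 0.34) and BRX1 (−0.15 ± 0.15) did not pass.

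Of the 9 RNA helicase genes, 5 fell at 90 min. HAS1 (YMR290C), a helicase that acts in both subunit pathways, had −0.75 and −1.25, a mean of −1.0 ± 0.20 (limma adjusted p = 0.000416). DBP3 (YGL078C), a helicase of early precursor cleavage, had −0.86 and −1.37, a mean of −1.12 ± 0.24 (limma adjusted p = 0.00063). MAK5 (YBR142W) had −0.53 and −1.09, a mean of −0.81 ± 0.17. For all 3 the arrays lay on the same side of 0, with replicate 2 lower. SPB4 (−0.42) and DBP6 (−0.45) passed with adjusted p of 0.0452 and 0.0485 by limma. DRS1 (−0.48 ± 0.20, limma adjusted p = 0.0567) and DBP7 (−0.35 ± 0.18) did not, and DBP9 and DBP10 had −0.10 and −0.12.

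In the Nsa1 particle, 3 of 4 genes fell. RPF1 (YHR088W), a Brix-domain protein of this particle, had −0.76 and −0.79, 2 arrays that hardly differ, and a mean of −0.78 ± 0.11 (limma adjusted p = 9.38e-06). RIX7 (YLL034C), the ATPase that releases Nsa1, had −0.16 and −0.92, and NSA1 (YGL111W) had −0.15 and −0.79. For both, most of the mean comes from replicate 2. MAK16 (−0.29 ± 0.22) did not pass.

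Among the Nop7 complex and ITS2 factors, which act at a spacer within the rRNA precursor, 4 of 5 fell. ERB1 (YMR049C), a partner of Nop7, had −0.59 and −1.17, a mean of −0.88 ± 0.12 (limma adjusted p = 7.11e-06). YTM1 (YOR272W), the third protein of the complex, had −0.47 and −1.01, and NOP15 (YNL110C), an RNA-binding protein of the spacer, had −0.18 and −0.73. RLP7 fell by 0.47 on the log2 scale. CIC1, with 0.06 and −0.52, did not pass. Of the 5S loading pair, RRS1 (YOR294W) fell, with −0.19 and −0.73. Its partner RPF2 had a lower mean, −1.0 ± 0.56 from −0.60 and −1.40, and did not pass (limma adjusted p = 0.153).

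RPF2 also had the largest residual SD of the members over the 36 arrays, 0.87, and 1 array carries much of it. On calcofluor white 0.1 mg/ml 15 min replicate 1 its spots read −6.37 and −3.06. In the setting that took the spot nearer 0 where spots disagreed and also dropped every value from a single spot, RPF2, DBP7, DRS1 and RSA3 passed at caffeine 20 mM 90 min too, and all 34 calls were kept. The effects of these 2 changes on the added calls were not separated.

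Among the nucleoplasmic factors, 6 of 9 tested fell. MRT4 (YKL009W), which holds the place of the stalk protein P0 on the immature particle, had −1.65 and −1.20, a mean of −1.42 ± 0.37 (limma adjusted p = 0.00346). RSA4 (YCR072C), which anchors the remodelling ATPase Rea1, had −1.12 and −0.96. Both arrays of each gene were well below 0. TIF6 (YPR016C), which keeps the immature subunit from joining the small one, had −0.28 and −0.79. RLP24 (−0.59), IPI3 (−0.48) and NSA2 (−0.42) fell as well. RIX1 (−0.38 ± 0.17, limma adjusted p = 0.074) and NOP53 (−0.26) did not pass. IPI1 (YHR085W), which forms a complex with Ipi3 and Rix1, was the highest member, with 0.17 and 0.18, and did not pass either (limma adjusted p = 0.222).

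Of the 6 genes of export and cytoplasmic maturation, 3 fell. ARX1 (YDR101C), an export factor, had −1.48 and −1.15, a mean of −1.32 ± 0.27 (limma adjusted p = 0.000458). NMD3 (YHR170W), the adapter that carries the nuclear export signal, had −0.19 and −0.84, and ALB1 (YJL122W), which binds Arx1, had −0.20 and −1.08. The arrays of NMD3 and ALB1 were thus less alike than those of ARX1. The rest of this group, SQT1, REI1 and JJJ1, did not pass. SQT1, the chaperone of a late-joining ribosomal protein, had −0.32 ± 0.14. REI1, which takes part in removing Arx1, had 0.29 and −0.85, and JJJ1, the J-protein that works with Rei1, had −0.31 and 0.06. For REI1 and JJJ1 the 2 arrays lay on opposite sides of 0.

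Of the 34 calls, those for NIP7, NOC3, NOP2, ERB1 and RPF1 were kept under every other setting tried. In total 8 of the 34 were more than 2-fold. Across the 49 members the 2 arrays of this condition correlated at 0.70, a description over genes that share arrays.

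**Figure D2:**
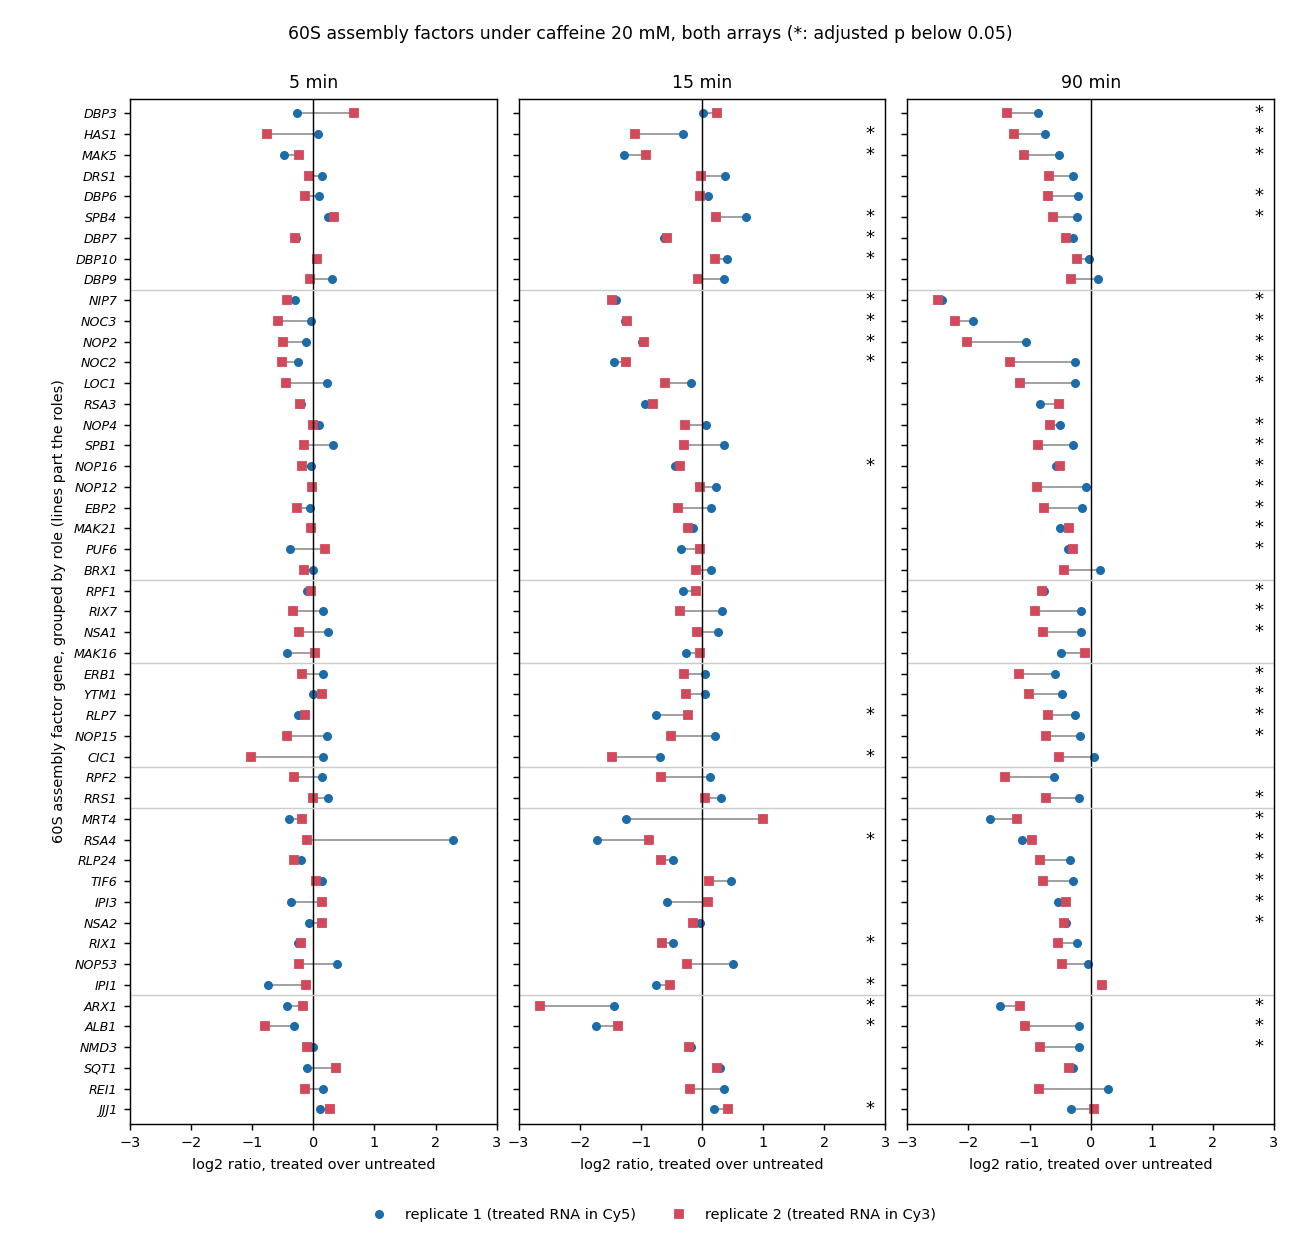
Log2 ratio, treated over untreated, of the 49 tested members (rows, parted by role) at 5, 15 and 90 min of caffeine 20 mM; circles are replicate 1 and squares replicate 2, joined by a line, and an asterisk marks an adjusted p below 0.05. At 90 min 43 members have both points left of 0, against 24 at 15 min.

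After 15 min at 20 mM a smaller set had changed: 15 members fell, 3 rose and 31 did not pass, where 16.8% of all 5258 genes tested fell and 14.4% rose. The members' median was −0.15, against 0.02 for all genes. Arrays lay on opposite sides of 0 for 18 members. ARX1 had the lowest mean, −2.05 ± 0.27 (limma adjusted p = 9.78e-06), from −1.44 and −2.66. Its spots on replicate 2 read −4.77 and −0.54 and thus disagree. With the spot nearer 0 its mean was −0.99 (limma adjusted p = 0.000527).

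NIP7 had −1.40 and −1.48 at 15 min, a mean of −1.44 ± 0.13 (limma adjusted p = 1.09e-07), and NOC2 had −1.43 and −1.24, a mean of −1.34 ± 0.18 (limma adjusted p = 1.04e-05). NOC3 (−1.27 and −1.22) and NOP2 (−0.98 and −0.96) had 2 nearly equal arrays. In all 4 both arrays lay well below 0. They and NOP16 were the 5 of 14 early nucleolar factors that fell at this time. MAK5 (−1.28 and −0.91), HAS1 (−0.31 and −1.10) and DBP7 (−0.62 and −0.58) fell among the helicases, whereas SPB4 (0.72 and 0.23) and DBP10 (0.41 and 0.22) rose.

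Of the later factors, ALB1 (−1.73 and −1.38), RSA4 (−1.72 and −0.86), IPI1 (−0.76 and −0.53), RIX1 (−0.48 and −0.65), CIC1 (−0.70 and −1.47) and RLP7 (−0.75 and −0.24) fell with both arrays below 0. JJJ1 rose, with 0.19 and 0.43. NOP16 completed the 15 that fell, at −0.40 ± 0.11. No gene of the Nsa1 particle or of the 5S loading pair passed, and the Nsa1 particle genes lay between −0.20 and 0.10. MRT4, lower at 90 min, had −1.24 and 0.99, arrays on opposite sides of 0, and the spots behind the 0.99 read 0.11 and 1.87.

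The count of 18 at 15 min was 7 with scaled arrays (14.3% of members, 10.7% of all genes). It was 10 without the replicate block (20.4% of members, 12.7% of all genes). Leaving out either array lowered it too, more so for replicate 1, the array on which 1 channel carries another time. ARX1, MAK5, NIP7 and NOC2 were kept under every setting tried. Of the 3 that rose, none passed without the replicate block or with scaled arrays.

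After 5 min at 20 mM, 0 members passed by limma, where 1.2% of all genes did (0.627% lower and 0.57% higher), and 5 had an unadjusted p below 0.05. RSA4 had the highest mean, 1.08 ± 0.32, from 2.28 on replicate 1 (spots 3.435 and 1.125) and −0.11 on replicate 2, and did not pass (limma adjusted p = 0.113). IPI1 (−0.44 ± 0.12), NIP7 (−0.37 ± 0.13) and NOC2 (−0.38 ± 0.18) were also among the 5, and none passed. With array weights 3 members (6.12%) passed, below the 10.7% of all genes that did.

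The change over time at 20 mM was tested directly. Between 15 and 5 min, 4 members were lower at 15 min and 0 higher, where 1.25% of all genes were lower and 1.29% higher. NIP7 had −1.40 and −1.48 at 15 min, against −0.30 and −0.43 at 5 min, a difference of −1.07 ± 0.19 (limma adjusted p = 0.00244). NOC2 differed by −0.95 ± 0.25 (limma adjusted p = 0.0455), with no overlap of the times. The differences of RSA4 (−2.38 ± 0.46) and ARX1 (−1.75 ± 0.38) rest partly on arrays with disagreeing spots. With the spot nearer 0 they were −1.80 (limma adjusted p = 0.0029) and −0.69 (limma adjusted p = 0.234). The count of 4 was 0 with scaled arrays and with only the caffeine arrays, where 0.0385% and 0.0769% of all genes differed. It was 1 (RSA4) without the replicate block (2.04% of members, 0.442% of all genes). Leaving out replicate 1 of 15 min or either array of 5 min lowered it too.

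Between 90 and 15 min, 14 members were lower at 90 min and 2 higher, where 17.9% of all genes were lower and 18% higher. In either direction 32.7% of members and 35.9% of all genes differed. NIP7 had −2.43 and −2.50 at 90 min, against −1.40 and −1.48 at 15 min, a difference of −1.03 ± 0.19 (limma adjusted p = 0.000302). ERB1 differed by −0.75 ± 0.17 (limma adjusted p = 0.00246) and TIF6 by −0.84 ± 0.21 (limma adjusted p = 0.00483). In both genes the 2 arrays at 90 min lay below the 2 at 15 min. DBP3, SPB4, DBP10, RPF1, RIX7, RRS1, SPB1, NOP4, NOP12, SQT1 and JJJ1 were lower too, by 0.43 to 1.24.

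The genes that were higher at 90 than at 15 min were IPI1 and ALB1. IPI1 had 0.17 and 0.18 at 90 min, against −0.76 and −0.53 at 15 min, a difference of 0.82 ± 0.16 (limma adjusted p = 0.000836). ALB1 had −0.20 and −1.08 at 90 min, against −1.73 and −1.38 at 15 min, a difference of 0.92 ± 0.35 (limma adjusted p = 0.0476). The count of 16 was 0 with scaled arrays, where 7.98% of all genes differed. Without the replicate block it was 6 (12.2% of members), where 15.3% of all genes differed. Fewer members also passed without replicate 2 of 90 min or without replicate 1 of 15 min.

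The dose of caffeine was compared at each time. At 90 min 17 members were lower at 20 mM than at 2 mM and 0 higher, where 12.1% of all genes were lower and 11.4% higher. NIP7 had −2.43 and −2.50 at 20 mM, against 0.39 and 0.00 at 2 mM, a difference of −2.66 ± 0.19 (limma adjusted p = 3.77e-09). NOC3 had −1.93 and −2.21 at 20 mM, against 1.24 and 0.05 at 2 mM, a difference of −2.72 ± 0.42 (limma adjusted p = 6.81e-05). NOP2 (−1.81 ± 0.31) and ERB1 (−0.88 ± 0.17) were lower in the same way, with adjusted p of 0.000206 and 0.000749 by limma. In each of these genes the 2 doses did not overlap. Replicate 1 of 2 mM, the higher 2 mM array for NIP7 and NOC3, is an array whose direction is open to doubt. Its sign was not turned in any setting. HAS1, MAK5, ARX1, NOC2, NOP16, RPF1, NOP15, ALB1, NMD3, YTM1, RIX1, LOC1 and SPB1 made up the rest, with differences between −0.42 and −1.64.

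The dose count at 90 min was 8 without the replicate block (16.3% of members, 9.54% of all genes). It was 2, NIP7 and NOC3, with scaled arrays (4.08% of members, 2.85% of all genes). Leaving out replicate 2 of 20 mM or either array of 2 mM lowered it too. At 5 and at 15 min 0 members differed between the doses by limma, with 6 at an unadjusted p below 0.05 at each time, where 2.78% and 4.88% of all genes differed. Without replicate 2 of caffeine 2 mM 5 min, 14 members (28.6%) differed at 5 min, as did 30.8% of all genes. NIP7 had −1.40 and −1.48 at 20 mM 15 min, against −0.76 and −0.84 at 2 mM, a difference of −0.64 ± 0.19 that missed the threshold (limma adjusted p = 0.0501). At 15 min 1 and 2 members (2.04% and 4.08%) were lower without replicates 1 and 2 of 20 mM, where 1.6% and 4.93% of all genes differed.

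At 2 mM itself few members passed. NIP7 and NOP2 fell at 15 min, where 0.112% of all genes did. NIP7 had −0.76 and −0.84 (mean −0.80 ± 0.13, limma adjusted p = 0.00248) and NOP2 had −0.69 and −1.44 (mean −1.07 ± 0.22, limma adjusted p = 0.0234). RIX1, with −0.53 and −0.93, missed the threshold (limma adjusted p = 0.059). Neither of the 2 calls passed without replicate 1, without replicate 2, without the replicate block or with only the caffeine arrays.

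At 5 min of 2 mM SQT1 rose, with 0.17 and 0.98 (mean 0.58 ± 0.14, limma adjusted p = 0.0202). There 3.12% of all genes rose and 2.03% fell (5.15% in either direction). NOP4 (−0.37 ± 0.12) and RIX7 (−0.37 ± 0.13), next by p, did not pass (limma adjusted p = 0.0835 and 0.0964). SQT1 did not pass without the replicate block, with scaled or uncentred arrays, with array weights, with only the caffeine arrays, without replicate 2, or with the sign of the unsettled array turned (adjusted p from 0.0775 to 1 by limma). With that sign turned, 8 other members (16.3%) and 18.1% of all genes passed. Without that array 3 members (6.12%) and 7.78% of all genes passed, and without replicate 2 11 members (22.4%) and 27.7% of all genes did. At 90 min of 2 mM 0 of 49 members passed by limma and 0% of all genes did, with 2 members at an unadjusted p below 0.05 and a median of −0.03.

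**Figure D3:**
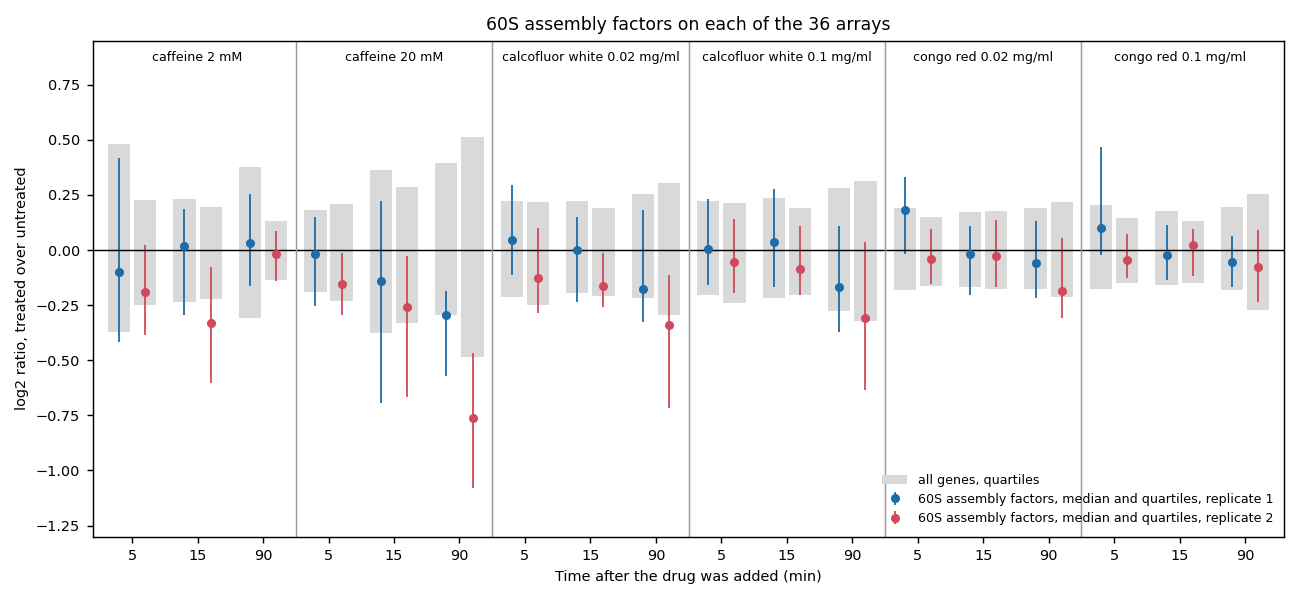
Median and quartiles of the members' log2 ratios, treated over untreated, on each of the 36 arrays (points with lines, replicate 1 left and replicate 2 right), with the quartiles of all genes in grey, by drug, dose and minutes. The members' median is −0.29 and −0.76 at caffeine 20 mM 90 min and lies between −0.34 and 0.18 on every other array.

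Calcofluor white at 0.1 mg/ml changed 11 members at 90 min: 9 fell and 2 rose, where 8.38% of all 5216 genes fell and 6.42% rose. The members' median was −0.21, against −0.01 for all genes. Arrays lay on opposite sides of 0 for 22 of 49. NIP7 had −0.81 and −1.10, a mean of −0.95 ± 0.13 (limma adjusted p = 3.8e-05). NOP2 (−0.82 and −1.15), MAK21 (−0.37 and −0.56), NOP16 (−0.38 and −0.46) and NOP4 (−0.47 and −0.43) fell with arrays close together. NOC2 (−0.30 and −1.08) and RIX1 (−0.21 and −1.12) fell with replicate 2 well below replicate 1.

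IPI1 rose, with 0.60 and 0.84, a mean of 0.72 ± 0.12 (limma adjusted p = 0.000223), and REI1 rose, with 1.20 and 0.40. Both genes were above 0 on both arrays. ARX1 (−1.49 ± 0.27) and RSA3 (−1.70 ± 0.34) had the lowest means, and in each 1 array lay far below the other. ARX1 had −2.13 and −0.84, and the spots of replicate 1 read −3.50 and −0.77. With the spot nearer 0 its mean was −0.80 (limma adjusted p = 0.00558). RSA3, which acts early with the helicase Dbp6, had −0.22 and −3.18, and the lower value comes from a single spot, the other having no usable value. Without values from single spots RSA3 was not tested here.

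No helicase gene and no gene of the Nsa1 particle, the Nop7 complex or the 5S pair passed at this condition. HAS1 (−0.57 ± 0.20, limma adjusted p = 0.0622) came closest. The count of 11 was 6 without the replicate block (12.2% of members, 4.43% of all genes). Leaving out either array lowered it too. NIP7 was kept under every setting tried.

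At 0.02 mg/ml and 90 min, 45 members could be tested, and 4 fell and 2 rose, where 5.64% of all genes fell and 5.59% rose. NIP7 had −0.83 and −1.32, a mean of −1.07 ± 0.13 (limma adjusted p = 2.17e-05). MAK21 (−0.27 and −0.65), NOP2 (−0.54 and −1.26) and RIX1 (−0.44 and −0.75) fell with both arrays below 0. REI1 rose, with 1.28 and 0.30 (limma adjusted p = 0.00368). RLP24 was called higher at 0.74 ± 0.23, from −0.15 and 1.62, and its spots on replicate 2 read 3.51 and −0.26. With the spot nearer 0 its value was −0.21 and no longer passed. The count was 2 without the replicate block (4.44% of members, 3.19% of all genes), and leaving out either array lowered it too.

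The 2 doses of calcofluor white at 90 min differed for 0 of 45 members by limma, and for 0% of all genes, with 4 members at an unadjusted p below 0.05. For NIP7 the difference was 0.12, with a 95% interval from −0.27 to 0.51. At 5 and 15 min 0 members passed at either dose, where at most 0.0197% of all genes did, and members with an unadjusted p below 0.05 numbered 0 and 1 at 0.1 mg/ml and 6 and 2 at 0.02 mg/ml. Without replicate 2 the result of 0 at 15 min of 0.1 mg/ml did not hold, and more of all genes passed too. At that condition RPF2 had −4.72 on replicate 1, the array of its disagreeing spots, and 0.12 on replicate 2. At 5 min of 0.02 mg/ml MRT4 had −2.73 on replicate 1 (spots −3.37 and −2.09) and a mean of −1.53 ± 0.37 that did not pass.

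Under calcofluor white at 0.1 mg/ml, 1 member differed between 90 and 15 min. It was NIP7, where 1.15% of all genes were lower and 1.31% higher. It had −0.81 and −1.10 at 90 min, against 0.01 and −0.19 at 15 min, a difference of −0.87 ± 0.19 (limma adjusted p = 0.0174). The call was lost without any 1 of these 4 arrays (adjusted p from 0.0529 to 0.124 by limma), without the replicate block, with scaled arrays and with only the calcofluor white arrays.

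**Figure D4:**
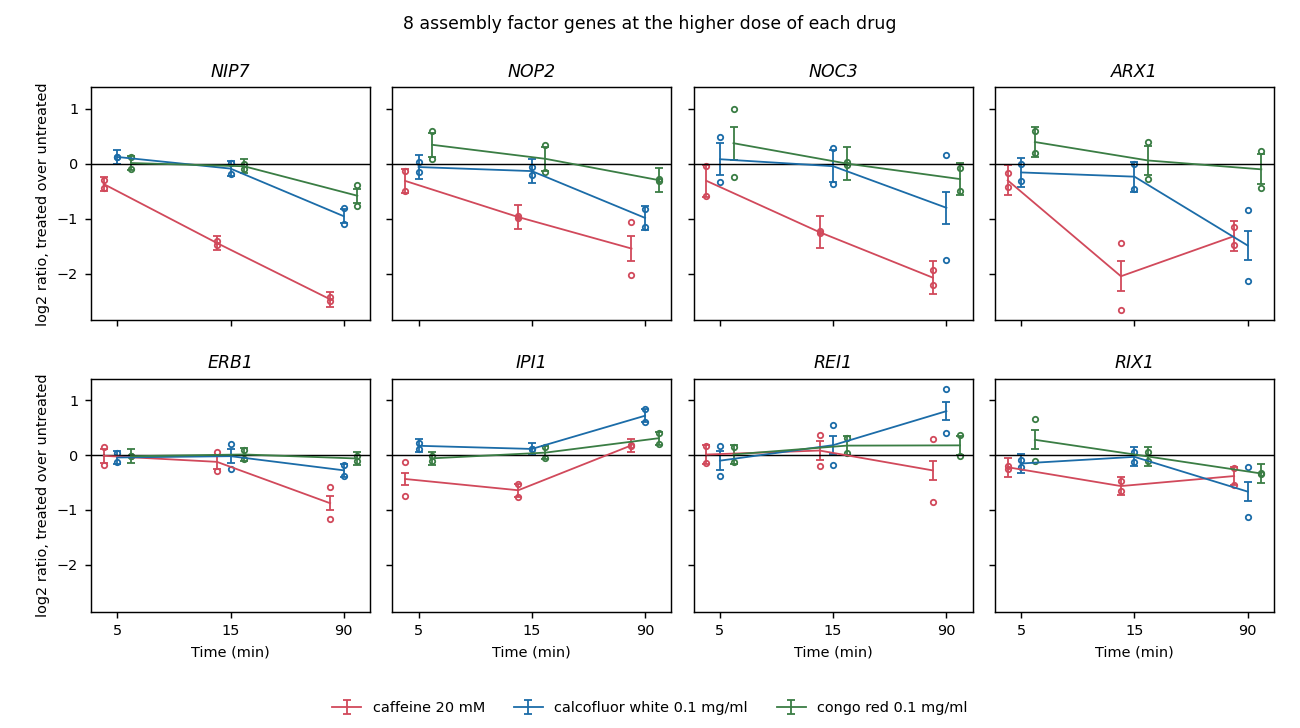
Log2 ratio, treated over untreated, of 8 member genes at 5, 15 and 90 min (evenly spaced on the axis) of caffeine 20 mM (red), calcofluor white 0.1 mg/ml (blue) and congo red 0.1 mg/ml (green); lines join means with SE bars and open circles are the 2 arrays. At 90 min NIP7 lies at −2.47 under caffeine, −0.95 under calcofluor white and −0.58 under congo red, while IPI1 lies at 0.72 under calcofluor white.

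Congo red at 0.1 mg/ml changed 1 member at 90 min. NIP7 fell, with −0.38 and −0.78, a mean of −0.58 ± 0.13 (limma adjusted p = 0.0278), where 0.26% of all genes fell and 1.12% rose. The call was lost without replicate 1, without replicate 2, without the replicate block, with scaled arrays and with only the congo red arrays. IPI1 (0.21 and 0.41) and PUF6 (0.06 and 0.54) were next by p and did not pass. At 0.02 mg/ml and 90 min 0 members passed by limma, with 4 at an unadjusted p below 0.05, where 0.691% of all genes passed. NIP7 had −0.21 and −0.79 there (limma adjusted p = 0.0947) and REI1 had 0.96 and 0.07 (limma adjusted p = 0.261).

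At 5 and 15 min of congo red 0 members passed at either dose, where at most 0.0187% of all genes did, and at an unadjusted p below 0.05 there were 1 member at 0.1 mg/ml and 0 at 0.02 mg/ml. Neither the comparison of 90 with 15 min at 0.1 mg/ml (0.0748% of all genes) nor that of 0.1 with 0.02 mg/ml at 90 min (0% of all genes) called a member by limma. Members at an unadjusted p below 0.05 numbered 1 and 0. For NIP7 the difference between the doses was −0.08, with a 95% interval from −0.47 to 0.31.

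The drugs were compared at their higher doses at 90 min, doses given in different units for caffeine and the dyes and so not matched. Caffeine 20 mM against the mean of both dyes gave 17 members lower and 0 higher, where 14.4% of all genes were lower and 15.5% higher. NIP7 had −2.43 and −2.50 under caffeine, against −0.81 and −1.10 under calcofluor white and −0.38 and −0.78 under congo red, a difference of −1.70 ± 0.16 (limma adjusted p = 2.03e-07). ERB1 had −0.59 and −1.17 under caffeine, against −0.18 and −0.37 under calcofluor white and −0.10 and −0.02 under congo red, a difference of −0.71 ± 0.15 (limma adjusted p = 0.00138). In both genes every caffeine array was below every dye array.

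RPF1 differed by −0.64 ± 0.14 (limma adjusted p = 0.00145) and NOC3 by −1.53 ± 0.36 (limma adjusted p = 0.00318). NOC3 had 0.15 and −1.75 under calcofluor white, so that its lower dye array came near the caffeine arrays. REI1 had 0.29 and −0.85 under caffeine, against 1.20 and 0.40 under calcofluor white and 0.37 and −0.01 under congo red, a difference of −0.77 ± 0.21 (limma adjusted p = 0.00827). MRT4, PUF6, NOP2, LOC1, DBP3, RIX7, SPB1, NOP12, YTM1, NMD3, HAS1 and NOP4 made up the rest. The 17 were 34.7% of members, where 29.9% of all genes differed in either direction. The count was 3 (6.12%) without the replicate block, where 12.1% of all genes differed. With scaled arrays it was 1, NIP7 (2.04%), where 4.4% of all genes differed. Fewer members also passed without replicate 2 of caffeine or of congo red.

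Calcofluor white against congo red gave 0 calls of 49 by limma, where 0.288% of all genes differed, with 10 members at an unadjusted p below 0.05. NIP7 had −0.81 and −1.10 under calcofluor white, against −0.38 and −0.78 under congo red, a difference of −0.37 with a 95% interval from −0.76 to 0.01. Without replicate 1 of calcofluor white the result of 0 did not hold, and more of all genes passed too.

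Other genes of the pathway were taken from fixed lists. At caffeine 20 mM 90 min 22.5% of all genes fell and 22.1% rose. Of 47 other 60S assembly factors, 27 fell and 1 rose there, with a median of −0.48. Of 64 assembly factors of the small subunit (40S), 32 fell and 1 rose (median −0.54), and of 7 subunit genes of RNA polymerase I, which transcribes the rRNA precursor, 4 fell and 1 rose (median −0.94). Of 73 large subunit ribosomal protein genes 68 fell, with a median of −0.92. The median of the members was thus nearer 0 than that of the ribosomal protein genes, a difference that was not tested.

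At caffeine 20 mM 15 min the same lists gave 12 lower and 5 higher of 48 other 60S factors, 26 lower and 1 higher of 64 40S factors, 5 lower of 7 polymerase I genes and 51 lower of 73 ribosomal protein genes. Of all genes, 16.8% fell and 14.4% rose at this condition. The members' median there was −0.15, against −0.60 for the ribosomal protein genes. At calcofluor white 0.1 mg/ml 90 min the lists gave 9 lower of 46, 14 of 62, 4 of 7 and 52 of 72. In each list 0 were higher. Of all genes, 8.38% fell and 6.42% rose. At congo red 0.1 mg/ml 90 min 0 genes of these lists passed by limma, where 1.38% of all genes did. An unadjusted p below 0.05 was found for 4 of 48, 5 of 64, 3 of 7 and 12 of 73.

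Dye orientation moved with many genes of the array, members among them. The dye term is the value with treated RNA in Cy5 minus that in Cy3, and equally that of replicate 1 minus replicate 2. It passed for 27 of the 43 members with a value on all 36 arrays. Over all genes it passed for 2815 of 4242, a similar share, so it does not set the members apart. It was 1.56 for CIC1, 0.86 for HAS1, −0.85 for DBP3 and 0.78 for NOP15. CIC1 was the lowest member on 11 of the 18 replicate 2 arrays and DBP3 on 9 of the 18 replicate 1 arrays. Disagreement between spots was rarer: the 2 spots differed by more than 1 in 13 of 1752 member values (0.742%), against 1.75% over all genes with 2 spots, and 7 member values rested on 1 spot.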

How the data were processed

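The authors' deposited values were 1 number per spot and array, and each array's values averaged 0. They were read as natural log ratios because, on each array, repeated values stood to the most frequent value as whole-number ratios in base e (97.67% to 100%, against at most 23.08% in base 2). The labels' texts give the dyes and the untreated control. How spots were scanned, background-corrected and normalized, and the array's genome build, are not given in the sources, so no coordinates are printed.

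Spots at an array's most frequent value, taken as a floor (1.609% to 16.09% of named spots), were set missing. Division by 0.6931 turned natural logs into log2, a gene's spots were averaged, and the median of each array was subtracted. Gene names came from the platform's probe annotation, updated through RefSeq: 11872 spots had 1 gene, 0 had several and 3616 had none. All value columns could be matched to a sample.

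One limma model (limma 3.58.1, R 4.3.3; figures with matplotlib 3.10.9) was fitted to all 36 arrays, with a term for each of the 18 conditions and one for dye orientation (17 residual degrees of freedom, prior degrees of freedom 3.67). The script was tested on simulated data. A gene was tested if at least 24 arrays gave it a value, among them both of any condition in the comparison. P-values were adjusted by Benjamini-Hochberg over all genes of a comparison, at 0.05. Replicate number and dye orientation are the same split, so the orientation term is also the replicate block. Labels call the replicates biological, and same-numbered arrays share their orientation. How far they lay from their condition means was correlated between conditions, by more than 0.1 for 153 of the 153 pairs (0.113 to 0.784), so the block was kept. Each p-value rests on the spread of a gene between arrays, pooled over all conditions, and not on the 2 arrays of its condition alone. The spread over genes (scaled median absolute deviation, log2) ran from 0.199 to 0.739 over the arrays. It was widest on caffeine 20 mM 90 min replicate 2.

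The rule for members uses no measured value, but members, gene lists and tests were chosen with earlier results of these data known, so they are not independent of them. Values on both arrays were given, by rule, for the 3 called members with the smallest p of each role at caffeine 20 mM 90 min, the 3 with the smallest p in every other condition where any member was called, the highest and lowest member, and up to 4 called members per contrast; others named were chosen after their values were seen. Alternatives were no replicate block, arrays scaled to one spread, no centring, floored spots kept, genes on all arrays only, only the arrays of the drugs compared, array weights, 1 array left out, and the sign of 1 array turned. One more, chosen after seeing the data, took the spot nearer 0 where the 2 spots of a gene differed by more than 1 and dropped values from single spots. A planned search of promoters for 2 sequence motifs was not run, since no promoter sequences were used here.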

Additional observations from a re-analysis of the deposited data

Results flagged for a closer look

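These results are given because the response of members differed between times, doses or drugs by a direct test (limma, Benjamini-Hochberg adjusted p below 0.05). With 2 arrays per condition no test for single deviating arrays was made.

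Between 15 and 5 min of caffeine 20 mM 4 members differed, NIP7 by −1.07, RSA4 by −2.38, ARX1 by −1.75 and NOC2 by −0.95 (log2), where 2.54% of all genes differed. The spots of ARX1 at 15 min and of RSA4 at 5 min disagree on 1 array, and with the spot nearer 0 ARX1 differed by −0.69 and did not pass (limma adjusted p = 0.234), and RSA4 by −1.80. Between 90 and 15 min 16 differed, with NIP7 at −1.03, IPI1 at 0.82, ERB1 at −0.75 and TIF6 at −0.84. That is 32.7% of members, against 35.9% of all genes, and none of the 16 passed with scaled arrays. Under calcofluor white 0.1 mg/ml 1 member, NIP7, differed between 90 and 15 min, by −0.87, where 2.45% of all genes did.

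Between caffeine 20 mM and 2 mM at 90 min 17 members differed, where 23.5% of all genes did, with NIP7 at −2.66, NOC3 at −2.72, NOP2 at −1.81 and ERB1 at −0.88. Between caffeine 20 mM and the mean of both dyes at 90 min 17 differed, where 29.9% of all genes did, with NIP7 at −1.70, ERB1 at −0.71, RPF1 at −0.64 and NOC3 at −1.53. Among the genes named in this section only IPI1, between 90 and 15 min of caffeine 20 mM, had a positive difference. ALB1, not named here, was also higher at 90 min in that contrast.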

How the results depend on the processing

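Other settings kept direction and side of the threshold for 425 of 514 values of named members and for 214 of 261 counts of members; leaving out an array kept 109 of 158 and 46 of 82. The cause of each change was not tested, except that settings with fewer arrays or genes hold fewer data by construction. Brackets after a count give the share of members called and then that of all genes tested. Counts with 1 array left out are given without these shares, so they do not tell members from genes in general. Without the replicate block the members called numbered 0 at caffeine 2 mM 5 min (0%, 0.903%) and 15 min (0%, 0.205%). They numbered 10 at caffeine 20 mM 15 min (20.4%, 12.7%) and 18 at 90 min (36.7%, 26.4%). At 90 min they numbered 2 and 6 at calcofluor white 0.02 (4.44%, 3.19%) and 0.1 mg/ml (12.2%, 4.43%), and 0 at congo red 0.1 mg/ml (0%, 0.297%). In contrasts they numbered 1 for caffeine 20 mM 15 against 5 min (2.04%, 0.442%) and 6 for 90 against 15 min (12.2%, 15.3%). There were 0 for calcofluor white 90 against 15 min (0%, 0.0804%), 8 for caffeine 20 against 2 mM at 90 min (16.3%, 9.54%) and 3 for caffeine against both dyes (6.12%, 12.1%). With arrays scaled to one spread they numbered 0 at caffeine 2 mM 5 min (0%, 0.583%). At caffeine 20 mM they numbered 2 at 5 min (4.08%, 3.61%), 7 at 15 min (14.3%, 10.7%) and 7 at 90 min (14.3%, 17.1%). At congo red 90 min they numbered 1 at 0.02 mg/ml (2.04%, 1.74%) and 0 at 0.1 mg/ml (0%, 1.56%). In the contrasts in the order above they numbered 0 (0%, 0.0385%), 0 (0%, 7.98%), 0 (0%, 0.0804%), 2 (4.08%, 2.85%) and 1 (2.04%, 4.4%). With array weights they numbered 0 at caffeine 2 mM 5 min (0%, 0%). At caffeine 20 mM they numbered 3 at 5 min (6.12%, 10.7%) and 20 at 90 min (40.8%, 29.2%). They numbered 1 at calcofluor white 0.02 mg/ml 5 min (2.04%, 0.37%) and 4 at congo red 0.02 mg/ml 90 min (8.16%, 6.29%). In contrasts they numbered 8 for 90 against 15 min of caffeine (16.3%, 23.3%), 9 for the dose at 90 min (18.4%, 14.4%) and 5 for caffeine against dyes (10.2%, 16.7%). With the arrays of the compared drugs only they numbered 0 at caffeine 2 mM 5 min (0%, 0%) and 15 min (0%, 0%). They numbered 0 at congo red 0.1 mg/ml 90 min (0%, 1.94%). In contrasts they numbered 0 for caffeine 15 against 5 min (0%, 0.0769%) and 2 for 90 against 15 min (4.08%, 14.4%). They numbered 2 for calcofluor white 90 against 15 min (4.26%, 3.68%) and 6 for the dose of caffeine at 90 min (12.2%, 11.4%). Without centring the all-gene median lay between −0.144 and 0.0797 over the conditions. It lay at −0.152 and −0.239 for 90 against 15 min of calcofluor white and caffeine 20 mM. Without centring the members called numbered 0 at caffeine 2 mM 5 min (0%, 3.61%) and 12 at calcofluor white 0.02 mg/ml 90 min (26.7%, 14.2%). They numbered 2 for calcofluor white 90 against 15 min (4.26%, 2.41%). Floored spots kept gave 10 at calcofluor white 0.02 mg/ml 90 min (20%, 10.4%) and 10 for caffeine 90 against 15 min (20%, 29.2%). Genes on all arrays gave 1 at calcofluor white 0.1 mg/ml 15 min (2.33%, 0.99%). With the spot nearer 0, chosen after seeing the data, 2 differed for calcofluor white 90 against 15 min (4.35%, 2.53%). For the dose of caffeine at 15 min 2 differed (4.08%, 5.73%).

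With the sign of caffeine 2 mM 5 min replicate 1 turned 8 members (16.3%) and 18.1% of all genes were called at that condition. NOP4 and RIX7 changed sign there, to 0.03826 and 0.07204. RLP24 at calcofluor white 0.02 mg/ml 90 min turned to −0.21 with the spot nearer 0 and ranged from −0.26 to 1.73 with 1 array left out, being −0.26 without replicate 2.

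Leaving out 1 array in turn gave 3 to 11 members at caffeine 2 mM 5 min, 0 to 0 at 15 min, 0 to 2, 5 to 13 and 11 to 24 at caffeine 20 mM 5, 15 and 90 min, 1 to 1 and 3 to 3 at calcofluor white 0.02 mg/ml 5 and 90 min, 0 to 1 and 4 to 7 at 0.1 mg/ml 15 and 90 min, and 0 to 0 at congo red 0.1 mg/ml 90 min. In contrasts it gave 1 to 4 and 3 to 17 for caffeine 15 against 5 and 90 against 15 min, 0 to 1 for calcofluor white 90 against 15 min, 0 to 14, 0 to 2 and 9 to 18 for the dose of caffeine at 5, 15 and 90 min, 0 to 1 for the dose of calcofluor white, 2 to 17 for caffeine against dyes and 0 to 1 between the dyes.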
